A study of Mus musculus with 3 samples.

Results

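Esrrb, Tfcp2l1, Zfp42, Nr0b1, Prdm14, Tbx3, Nr5a2, Gbx2, Tcl1 and Calcoco2 are genes linked with the naive state of mouse pluripotent cells. They were taken by symbol from the platform annotation, and all 10 were found among the 22180 genes that the arrays measured with probe sets of a single symbol. Gbx2 was the 1 member with a second such probe set. Total RNA of 3 cultures of mouse pluripotent cells was measured, on 1 Affymetrix Mouse Gene 2.0 ST array each. EB3, an established line of mouse embryonic stem cells (mESCs), was the source of all 3. In Activin+PD the mESCs had spent 64 days in Activin A (20 ng/ml), a TGF-beta family ligand acting on SMAD2 and SMAD3, plus the MEK inhibitor PD0325901 (2 µM). In 2i they had spent 34 days in the same inhibitor (2 µM) plus CHIR99021 (2 µM), which blocks GSK3 and so protects beta-catenin from degradation. The mEpiSC culture held epiblast stem cells, a model of the primed post-implantation epiblast, induced from the mESCs and cultured in Activin A (20 ng/ml) plus bFGF (12 ng/ml). The basal medium was N2B27 in each case. Activin+PD and 2i also differed in days of culture, and the effects of days and of added factors cannot be told apart.

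Naive mESCs are held by a network of transcription factors that support one another, and inhibition of GSK3 relieves the repressor TCF7L1 at several of its genes. ESRRB and NR5A2 are orphan nuclear receptors that bind closely related DNA sites. TFCP2L1 is a CP2-family factor downstream of STAT3 and GSK3 inhibition, and ZFP42, better known as REX1, is a zinc finger protein related to YY1 whose loss marks the exit from naive pluripotency. NR0B1, or DAX1, is a nuclear receptor that lacks the usual DNA-binding domain and interacts with NR5A2 and OCT4. PRDM14 represses FGF receptor and DNA methyltransferase genes, TBX3 and GBX2 are factors that help to keep mESCs undifferentiated, TCL1 is a coactivator of AKT kinases, and CALCOCO2 is an autophagy receptor.

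The 300-base promoter windows that RefSeq gives (build GRCm38.p6) covered 7 of the 10 genes with 9 windows, and the 250 bases before the annotated start were searched. Prdm14, Tbx3 and Calcoco2 had no entry. The upstream stretches of Zfp42, Tfcp2l1 and Nr0b1 are shown because these genes had the 3 largest measured or bounded losses from 2i to mEpiSC. Each is written 5′ to 3′ on the strand of the gene, with motif matches in capitals. The Zfp42 stretch is chr8:43307010-43307259 on the minus strand, that of Tfcp2l1 chr1:118627695-118627944 on the plus strand and that of Nr0b1 chrX:86191525-86191774 on the plus strand.
Zfp42: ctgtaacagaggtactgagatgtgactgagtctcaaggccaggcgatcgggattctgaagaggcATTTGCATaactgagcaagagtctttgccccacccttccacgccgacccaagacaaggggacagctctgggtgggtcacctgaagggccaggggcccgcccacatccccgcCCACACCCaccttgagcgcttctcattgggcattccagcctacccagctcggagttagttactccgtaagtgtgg
Tfcp2l1: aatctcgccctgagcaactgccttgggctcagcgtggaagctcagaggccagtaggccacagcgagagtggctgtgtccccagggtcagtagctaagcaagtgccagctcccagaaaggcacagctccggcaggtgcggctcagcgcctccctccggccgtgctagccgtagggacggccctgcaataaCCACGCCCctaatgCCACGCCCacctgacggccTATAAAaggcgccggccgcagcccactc
Nr0b1: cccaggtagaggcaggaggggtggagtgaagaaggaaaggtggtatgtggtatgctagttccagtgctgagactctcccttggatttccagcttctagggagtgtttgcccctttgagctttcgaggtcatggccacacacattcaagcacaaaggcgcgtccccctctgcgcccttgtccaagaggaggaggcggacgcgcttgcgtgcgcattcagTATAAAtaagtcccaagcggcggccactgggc

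Zfp42 carried 1 octamer of the kind that OCT4 binds (ATGCAAAT, here on the reverse strand), 179 to 186 bases before its start. This octamer was in 1.6% of all 32851 windows of that length and in no other member window. The KLF motif GGGNGTGG lay 68 to 75 bases before the start of Zfp42 and at 2 places before Tfcp2l1, 40 to 47 and 54 to 61 bases upstream. It was also in 1 of the 2 windows of Nr5a2 and in 15.9% of all windows. A TATAAA box lay 27 to 32 bases before the start of Nr0b1 and 23 to 28 bases before that of Tfcp2l1. With 1 window of Nr5a2, where it lay on the reverse strand, these were 3 of the 9 member windows, against 12.4% of all windows. None of the 9 windows held the motifs searched for ESRRB and NR5A2 (TCAAGGTCA, in 0.387% of all windows), STAT3 (TTCCNGGAA, 0.913%), TCF/LEF (CTTTGAT, 3.21%), SOX factors (ACAATGG, 3.02%), FOXH1 (AATNCACA, 3.18%) or SMADs (GTCTAGAC, 0.167%). Both strands were read, and the matches found did not overlap. A match or its absence here concerns only these letters in these windows.

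Values below are log2 of the deposited intensity unless another scale is named. Background was set on each array as the 95th percentile of 1405 probe sets for odorant and pheromone receptors (symbols Olfr and Vmn), at log2 levels of 5.50 (Activin+PD), 5.59 (2i) and 5.57 (mEpiSC). There were no replicates, so no difference could be tested against the spread between cultures. Probe set error alone was gauged on 620 genes from how far their paired probe sets disagreed about a difference. Its standard deviation was 0.24 between Activin+PD and 2i, 0.36 between mEpiSC and 2i and 0.33 between mEpiSC and Activin+PD. Levels were compared across arrays for each probe set, not between probe sets. The summed intensities given for some lists add different probe sets, and the brightest weigh most in them. In a culture measured as bulk RNA, fewer cells with a transcript and less transcript per cell cannot be told apart.

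Marker genes of the labelled states were read first. Of 12 primed markers compared, 8 were at least 2-fold higher in mEpiSC than in 2i and none was 2-fold lower. Over all genes compared, 4.53% were at least 2-fold higher in mEpiSC than in 2i, and 1.38% in Activin+PD than in 2i. Fgf5, a ligand of the primed epiblast, was at 7.08 in Activin+PD, 5.60 in 2i and 10.88 in mEpiSC. Between the mESC cultures, Activin+PD exceeded 2i by 2-fold or more at 3 primed markers, among them Fgf5 and Otx2 (7.82, against 5.55 and not above background in 2i). Pou5f1, which encodes OCT4, was within 2-fold on all arrays, at 8.09, 8.24 and 8.39. Of 14 fibroblast markers of feeder cells, Postn, Lum, Dcn, Fap and S100a4 were not above background on any array. The 9 compared between mEpiSC and 2i included 2 at least 2-fold higher in mEpiSC, Mmp2 (2.87-fold) and Tagln (2.66-fold), and 7 within 2-fold. Summed intensities of the 14 were 818 in Activin+PD, 786 in 2i and 1165 in mEpiSC. None of 6 housekeeping genes compared was 2-fold apart in any comparison, and Hprt, also on that list, was not above background on any array. Most genes were within 2-fold, so this says little.

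All 10 members were above background in both mESC cultures, and 6 of them in mEpiSC. In Activin+PD against 2i, 8 members were within 2-fold, while Calcoco2 lay above and Gbx2 below that limit. Over all 14022 genes compared, 1.38% were higher and 0.82% lower by that measure. In mEpiSC, 9 of the 10 were at least 2-fold lower than in 2i and 9 lower than in Activin+PD, whereas 4.96% and 5.37% of all genes compared were lower. No member was at least 2-fold higher in mEpiSC, where 4.53% of all genes were higher against 2i and 3.59% against Activin+PD. The median member difference was 0.18 in the first comparison, against -0.0059 over all genes. It was -3.80 when 2i was subtracted from mEpiSC (0.030 over all genes) and -3.93 when Activin+PD was (0.042). The former rests in part on Calcoco2, which was not above background in mEpiSC, and was -3.55 with such values raised to background. Both mEpiSC comparisons use the same mEpiSC array, and the members were chosen with earlier results of these data known.

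**Figure D1:**
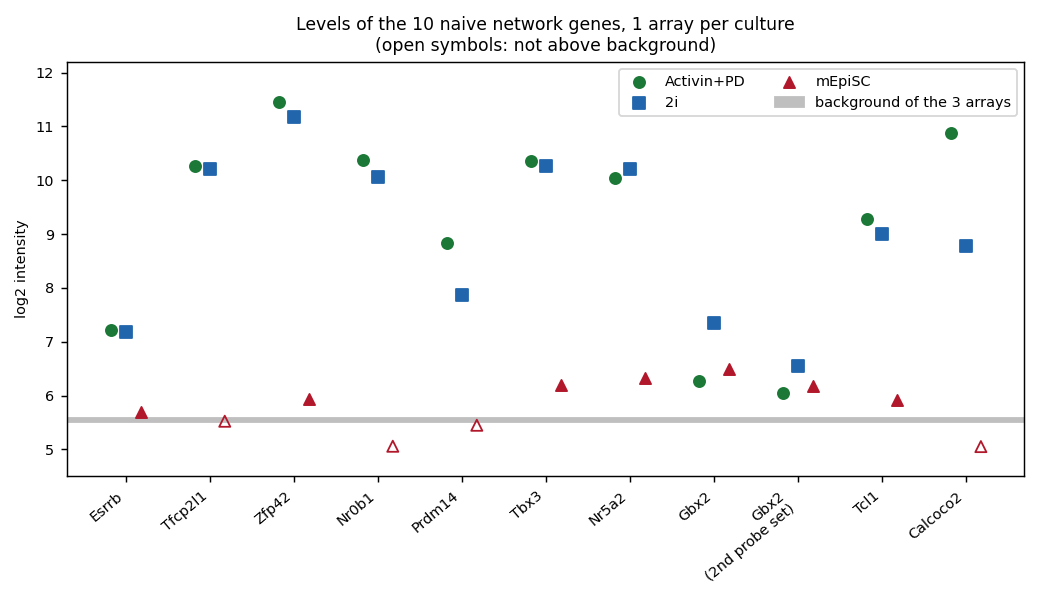
Log2 intensity of each member (x axis) by culture, with 1 array per culture and no error bars, with the background of the 3 arrays as a grey band from 5.50 to 5.59. Circles and squares of the mESC cultures lie close together for most genes and far above the mEpiSC triangles, while Gbx2 is highest in 2i and Calcoco2 is highest in Activin+PD.

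Esrrb, an activator of the naive network, had a level of 7.22 in Activin+PD, 7.18 in 2i and 5.69 in mEpiSC (probe set 17277504). The mESC cultures were alike, differing by 0.037, which is below the probe set error of 0.24. The mEpiSC level was 2.81-fold below 2i and 2.88-fold below Activin+PD. This probe set was dim throughout, at 3.02 times background in 2i and 1.09 times background in mEpiSC. A fall from 2i to the mEpiSC background would have been only 3.05-fold, so 92.5% of the measurable log2 range was lost. A fall from 2i of more than 3.05-fold could not have been measured with this probe set.

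Tfcp2l1 stood at 10.26 in Activin+PD, 10.21 in 2i and 5.52 in mEpiSC (probe set 17216620). The first 2 levels differed by 0.053, again within probe set error, and the third was not above background. The gene was thus at least 25.0-fold lower in mEpiSC than in 2i and at least 25.9-fold lower than in Activin+PD.

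Zfp42 had levels of 11.45, 11.18 and 5.94 in Activin+PD, 2i and mEpiSC (probe set 17508994), or intensities of 2802, 2321 and 61.4. It was 1.21-fold higher in Activin+PD than in 2i, a difference of 0.27 that slightly exceeds the probe set error of 0.24. In mEpiSC it remained just above background, at 1.29 times, and was 37.8-fold lower than in 2i and 45.6-fold lower than in Activin+PD. Among the 12809 genes above background in both 2i and mEpiSC, 1 gene had a larger drop, and the same was true of the 13043 genes above background in Activin+PD and mEpiSC.

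Nr0b1 stood at 10.37 in Activin+PD, 10.06 in 2i and 5.06 in mEpiSC (probe set 17536201). It was 1.25-fold higher in Activin+PD than in 2i, a difference of 0.32 that is larger than the probe set error. In mEpiSC it was not above background, being at least 22.4-fold below 2i and at least 28.0-fold below Activin+PD.

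Nr5a2, the receptor whose site resembles that of ESRRB, was at 10.04 in Activin+PD, 10.21 in 2i and 6.33 in mEpiSC (probe set 17227515). It was the 1 member besides Gbx2 that was lower in Activin+PD than in 2i, and this difference of -0.17 was within probe set error. Its mEpiSC level was 14.7-fold below 2i and 13.1-fold below Activin+PD but still 1.70 times background. Nr5a2 thus lost 83.6% of its measurable range from 2i to mEpiSC.

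Tbx3, a T-box factor, had levels of 10.36, 10.26 and 6.20 in Activin+PD, 2i and mEpiSC (probe set 17441595). The mESC cultures differed by 0.097, within probe set error. The mEpiSC culture was 16.7-fold below 2i and 17.8-fold below Activin+PD, and kept a level of 1.55 times background. Among the genes above background in both 2i and mEpiSC, 6 had a larger drop than Tbx3, which ranked 7 from the lowest, and Nr5a2 ranked 11. Genes not above background in mEpiSC are outside these ranks. Among them, Tfcp2l1 and Nr0b1 fell further than Tbx3, by at least 25.0-fold and 22.4-fold.

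Tcl1, the AKT coactivator gene, was at 9.28 in Activin+PD, 9.00 in 2i and 5.91 in mEpiSC (probe set 17283773). It was 1.22-fold higher in Activin+PD than in 2i. In mEpiSC it was 8.50-fold lower than in 2i and 10.4-fold lower than in Activin+PD, at 1.27 times background.

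**Figure D2:**
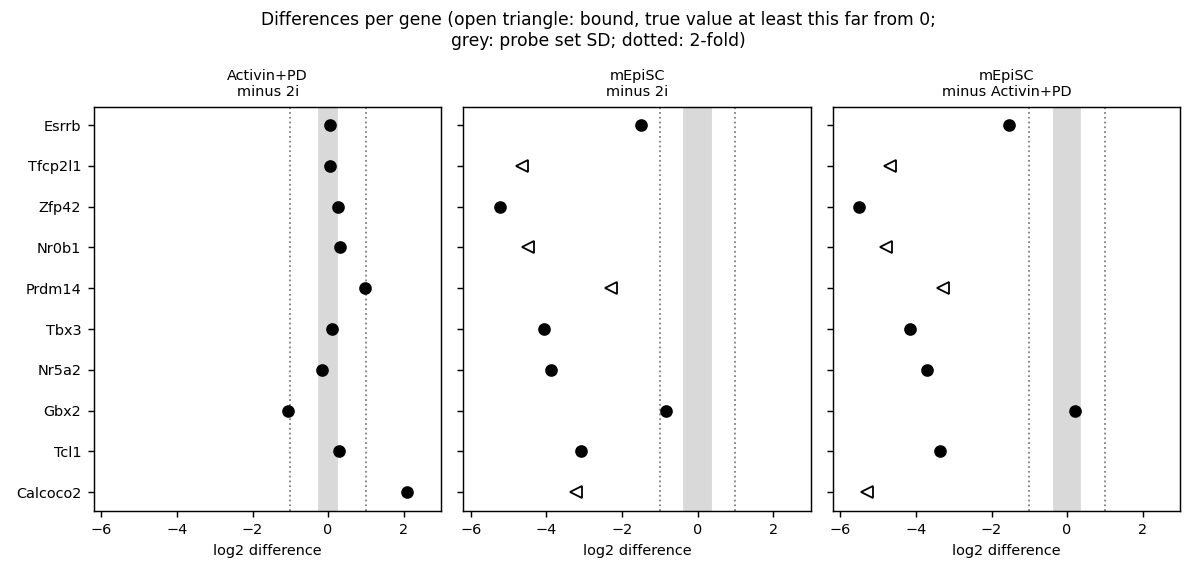
Log2 difference of each member (rows) in the 3 comparisons, with filled points for genes above background on both arrays and open triangles for bounds. The grey band is the probe set SD of each comparison (0.24, 0.36 and 0.33) and dotted lines mark 2-fold. In the left panel 4 members lie inside the band, and in the other panels all members except Gbx2 lie beyond the 2-fold line on the left.

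Prdm14, Calcoco2 and Gbx2 were the members whose levels stood clearly apart between the mESC cultures. Prdm14 had levels of 8.84, 7.87 and 5.45 in Activin+PD, 2i and mEpiSC (probe set 17221307), so that each culture was separate from the next. It was 1.96-fold higher in Activin+PD than in 2i, just short of 2-fold, and ranked 179 from the highest among the 13059 genes above background on both arrays. Its mEpiSC level was not above background, at least 4.93-fold below 2i and at least 9.66-fold below Activin+PD.

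Calcoco2 had levels of 10.87 in Activin+PD, 8.78 in 2i and 5.05 in mEpiSC (probe set 17268301), or intensities of 1875, 440.7 and 33.2. It was 4.25-fold higher in Activin+PD than in 2i, and ranked 14 from the highest among the same 13059 genes. With mEpiSC not above background, it was at least 9.28-fold lower there than in 2i and at least 39.5-fold lower than in Activin+PD. Calcoco2 therefore did not share a common level in the mESC cultures.

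Gbx2, a homeobox factor downstream of STAT3, went another way, with levels of 6.28 in Activin+PD, 7.35 in 2i and 6.50 in mEpiSC (probe set 17225373). Activin+PD was 2.10-fold below 2i, whereas mEpiSC was 1.80-fold below 2i. Activin+PD and mEpiSC differed by 0.22, which is within the probe set error of 0.33. The second probe set (17215601) gave 6.05, 6.54 and 6.18, with the same order of arrays and a smaller difference between Activin+PD and 2i, -0.49. With the mean of both probe sets that difference was -0.78, and no member was then at least 2-fold lower in Activin+PD. Both probe sets were dim, between 1.46 and 3.38 times background.

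How far each member was kept with Activin A in place of CHIR99021 was also expressed as a share. The distance between Activin+PD and mEpiSC was taken as a percent of that between 2i and mEpiSC, for the 9 members at least 2-fold lower in mEpiSC than in 2i. Gbx2, 1.80-fold lower, was left out by this rule and was not kept. Its Activin+PD level (6.28) lay near that of mEpiSC (6.50) and below that of 2i (7.35). For 8 of the 9 the distance from Activin+PD was the larger, and for Nr5a2 the share was 95.6%, with a median of 105%. It was 101% for Tfcp2l1, 102% for Tbx3, 103% for Esrrb, 105% for Zfp42, 106% for Nr0b1 and 109% for Tcl1. It was 140% for Prdm14 and 156% for Calcoco2, the latter 165% with values raised to background and 146% with 16 subtracted from each intensity. Shares of Tfcp2l1, Nr0b1, Prdm14 and Calcoco2 rest on mEpiSC levels that were not above background, and the share carries no replicate error.

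**Figure D3:**
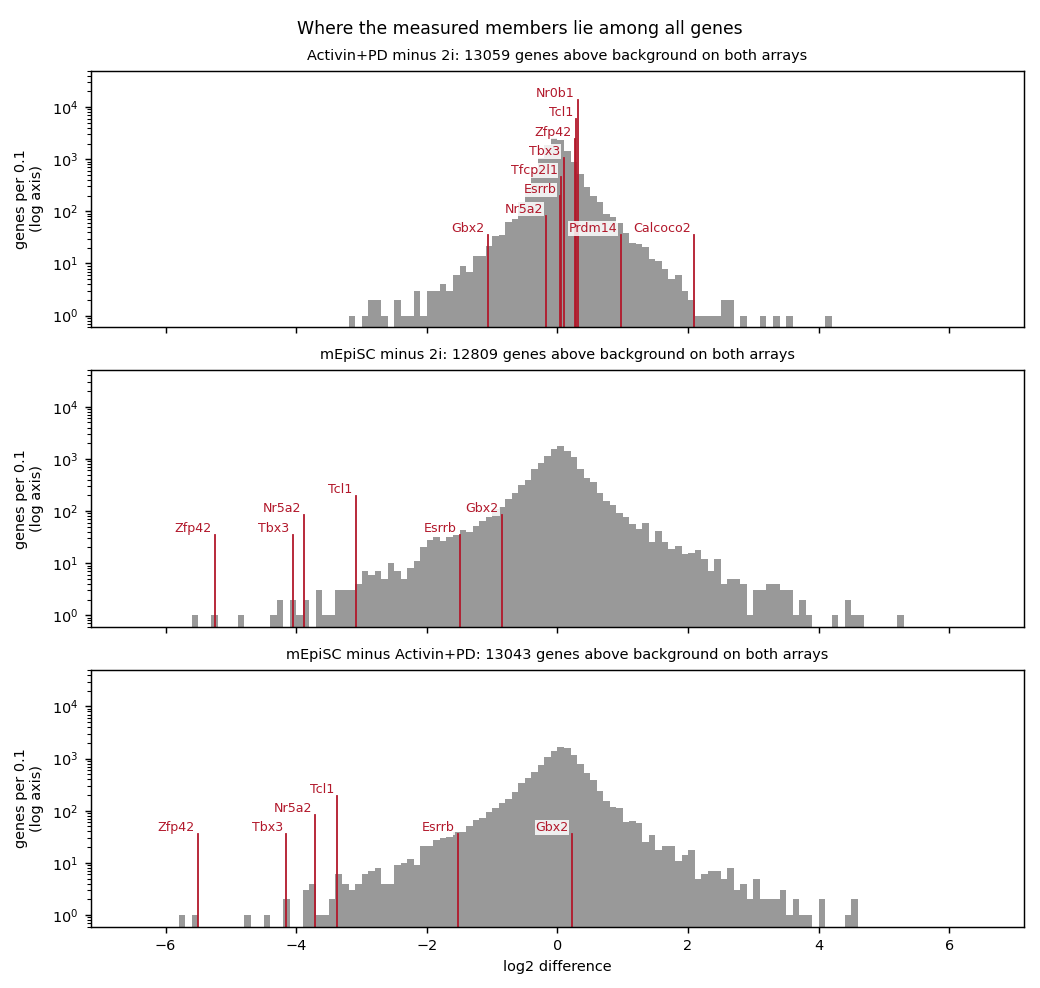
Histograms of the log2 difference (x axis) over all genes above background on both arrays of a comparison (13059, 12809 and 13043 genes, log y axis), with red lines at the members measured on both. In the top panel Calcoco2, Prdm14 and Gbx2 lie towards the tails and the other members between -0.17 and 0.32, and in the lower panels Zfp42, Tbx3, Nr5a2 and Tcl1 sit in the far left tail.

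Likeness of pattern was measured over the 3 arrays as the Euclidean distance between log2 levels centred on each gene's mean. It was ranked among 14529 genes above background on at least 1 array, with the members themselves left out. The 3 genes nearest to Esrrb were Dlc1 (0.024), Tanc1 (0.029) and Acaa2 (0.044), all above background on every array. Jam2, a junctional adhesion gene, was among the 3 nearest to Zfp42 (0.22), again with all levels above background. The other near genes of Zfp42 were Zfp981 and Fbxo15, which were not above background in mEpiSC. Pla2g1b, Nid1 and Gm10324 were nearest to Tfcp2l1, and Fbxo15, Zfp981 and Pla2g1b to Nr0b1. Since Tfcp2l1 and Nr0b1 were themselves not above background in mEpiSC, distances that involve them, or Zfp981 and Fbxo15, depend on values that have no order. None of these distances is given, and which genes came out nearest depends on such values too. The short measurable range of the Esrrb probe set limits its distances too, to the brighter members and to Dlc1, Tanc1 and Acaa2. In mEpiSC Esrrb was at 1.09 times background, whereas these 3 genes were at 6.92, 7.47 and 7.18. Its small distances to them therefore rest on a fall that the probe set may have cut short. With 3 arrays the measure describes these levels only.

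Family relatives of the members did not share their pattern for the most part. Of 28 relatives on the arrays, 21 were above background on at least 1 array and could be compared between mEpiSC and 2i. There 1 was at least 2-fold higher, 2 lower and 18 within 2-fold, with a median of 0.052. Over all genes compared, 4.53% were higher and 4.96% lower, with a median of 0.030, so the relatives moved much as genes at large did. Esrra, the broadly expressed relative of Esrrb, was at 7.30, 7.50 and 7.55 in Activin+PD, 2i and mEpiSC. Yy1, related to Zfp42, was at 9.53, 9.56 and 9.70. Nr5a1, the paralogue of Nr5a2, was close to background everywhere (5.87, 5.86 and 5.92). The CP2-family gene Ubp1 was at 9.07, 9.05 and 9.26.

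Grhl3, a grainyhead factor of the wider CP2 family, was among the relatives that did move, at 9.29, 8.78 and 7.04. It was 3.34-fold lower in mEpiSC than in 2i. Tfcp2 was at 6.73, 7.19 and 5.95, with 2i highest and mEpiSC lowest. Grhl2, an epithelial factor, ran opposite, at 5.90 in Activin+PD, not above background in 2i and 7.24 in mEpiSC. Prdm1, a factor of germ cell specification, was 2.25-fold higher in Activin+PD than in 2i (7.48 against 6.31) and stood at 6.86 in mEpiSC. The autophagy receptor relatives of Calcoco2 showed no such jump, with Calcoco1 at 8.98, 8.83 and 8.55 and Tax1bp1 at 10.27, 10.06 and 9.91.

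**Figure D4:**
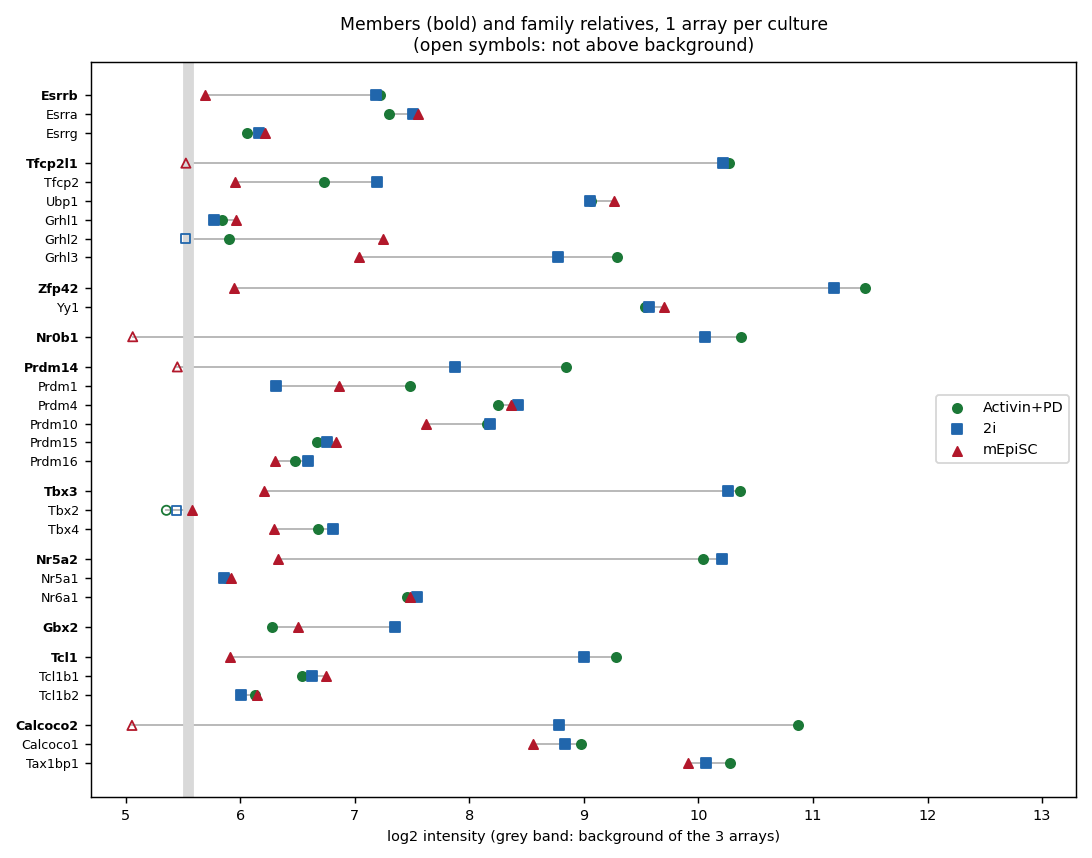
Log2 intensity of the members (bold) and of their 21 family relatives above background on at least 1 array, with 1 symbol per array and the background as a grey band. Long grey lines of members such as Zfp42 (11.45 to 5.94) contrast with the short lines of relatives such as Yy1 (9.53 to 9.70), and Grhl3 is a relative with a longer line (9.29 to 7.04).

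Other naive genes followed the members in direction. Of 11 compared, all were within 2-fold between Activin+PD and 2i, as most genes were (1.38% higher and 0.82% lower). In mEpiSC, 8 were at least 2-fold lower than in 2i, against 4.96% of all genes, with a median of -1.52. Klf2, a factor of the naive state, was at 10.10, 10.06 and 6.81. Tet2, a DNA demethylase gene, was lower in mEpiSC than in 2i by 12.3-fold. Fbxo15 was not above background in mEpiSC. Of 8 core pluripotency genes, 4 were within 2-fold between mEpiSC and 2i, among them Sall4 at 10.44, 10.28 and 10.19. Nanog (3.99-fold), Dppa4 (3.60-fold) and Sox2 (2.24-fold) were lower in mEpiSC, and Utf1 was 2.65-fold higher.

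Genes that act with the members were read next. None of 10 nuclear receptor cofactor genes and none of 11 upstream regulators was 2-fold apart between Activin+PD and 2i, a distance that few genes on these arrays reached (1.38% higher and 0.82% lower). Ncoa3, which encodes a coactivator that ESRRB recruits, was at 10.40, 10.04 and 8.58 in Activin+PD, 2i and mEpiSC, and was 2.74-fold lower in mEpiSC than in 2i. Ncoa1 and Ncoa6 were lower there by 2.71-fold and 2.54-fold. The other 7 of the 10 cofactor genes were within 2-fold in that comparison, where 4.96% of all genes compared were lower. Tcf7l1, the repressor that GSK3 inhibition relieves, was at 10.49, 10.21 and 9.89. The LIF receptor genes Lifr and Il6st, upstream of STAT3, were lower in mEpiSC than in 2i, by 3.38-fold and 4.21-fold. The other 9 of the 11 upstream regulators were within 2-fold there, among them Stat3 itself at 8.08, 8.35 and 8.33.

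Partners and repressed targets of PRDM14 were set beside its levels. None of 11 was 2-fold apart between Activin+PD and 2i, where few genes were (1.38% higher and 0.82% lower), nor was Prdm14 itself (1.96-fold). Among them, Fgfr2 was 1.82-fold and Dnmt3a 1.63-fold higher in Activin+PD. Cbfa2t2, its co-repressor partner, was at 8.25, 8.20 and 7.82 in Activin+PD, 2i and mEpiSC. Dnmt3b, a de novo methyltransferase gene, was lower in Activin+PD (8.95) than in 2i (9.54) and highest in mEpiSC (11.60). Fgfr2, in contrast, was higher in Activin+PD (8.05) than in 2i (7.19) and lowest in mEpiSC (6.18), so the listed targets did not all run opposite to Prdm14. Dnmt3l and Dnmt3a were also lower in mEpiSC than in Activin+PD, by 3.81-fold and 2.29-fold.

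Of 13 autophagy receptor and adaptor genes, none was 2-fold apart between Activin+PD and 2i, where Calcoco2 differed 4.25-fold. Few genes of any kind were that far apart (1.38% higher and 0.82% lower), so the lack of such genes says little about this list. Sqstm1, the receptor p62, was at 10.41, 10.31 and 9.80. Of 6 AKT pathway genes, none was 2-fold apart between Activin+PD and 2i or between mEpiSC and 2i, where Tcl1 was 8.50-fold lower. In mEpiSC against 2i, 4.53% of all genes compared were higher and 4.96% lower, so this too says little about 6 genes. Against Activin+PD, 1 of the 6 was lower in mEpiSC, the kinase gene Pik3cb by 2.06-fold, where 5.37% of all genes were lower. Akt1 was at 7.75, 7.63 and 8.26.

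Markers of other cell types that also use some members were read on the same arrays. Of the 9 germ cell markers, Dppa3, Prdm1 and Tfap2c also stand in other lists. In Activin+PD, 4 of the 9 exceeded their 2i level by 2-fold or more, against 1.38% of all genes compared. Prdm14 and Calcoco2 were also higher there. The summed intensity of the 9 germ cell markers was 2730 in Activin+PD, 1229 in 2i and 612 in mEpiSC. Dazl, Ddx4, Mael and Stk31 were not above background in mEpiSC. Summed intensities of 12 primitive endoderm markers were 865, 856 and 1139, with Sox7 and Cubn not above background on any array and Gata6 above it only in mEpiSC. Between mEpiSC and 2i, 2 of the 10 compared were at least 2-fold higher, Foxq1 and Gata6, and 1 was lower, Lama1 by 3.14-fold. Over all genes compared between these arrays, 4.53% were higher and 4.96% lower. Summed intensities of 12 trophoblast markers were 1558, 1726 and 2547, with Elf5 not above background on any array. In mEpiSC against 2i, 3 of the 11 compared were higher, namely Eomes (5.22-fold), Krt18 (5.31-fold) and Krt8 (3.53-fold), and 3 were lower, with a median difference of -0.33 although the sum was larger. Cdx2, at 8.64 in 2i, was near background in Activin+PD (5.84) and mEpiSC (5.91), and Gata3 was 2.94-fold higher in Activin+PD than in 2i. The members' own sum was 10908, 8478 and 574. The part of other cell types in the members' levels was not tested.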

How the data were processed

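Per the series' design text, total RNA was labelled with the WT PLUS reagent kit and hybridised to 1 array per culture. The deposited values were 1 normalised intensity per probe set and array, on a linear scale, as the range from 18.9 to 11623 shows. RMA is named in the submitters' processing notes and GeneSpring GX 11.5 in the design text. RMA makes the distributions of arrays alike, so a change in total RNA is not visible. A constant added before deposit, which the similar lowest values would allow, would shrink folds of dim genes. The number of arrays, 1 per group, limits the precision.

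Here log2 of each intensity was taken with no other change. Of 33793 probe sets, 23521 had 1 symbol, 1814 had several and 8458 were not listed in the annotation. Symbols were updated through Entrez identifiers for 23328. A gene was represented by its probe set with the highest mean. A gene was compared where the brighter array was above its background, and 2-fold was the threshold. Where the dimmer array was at background, the difference is a bound ("at least"), the brighter level minus that background. No p-value was computed. The members, lists, rules and tests were chosen with earlier results of these data known. All members were named, with up to 3 members of each other list by size of difference and others for context, chosen after their values were seen. The code that computes differences was checked on simulated data. Python 3.11.15, pandas 2.3.3 and numpy 2.4.6 were used.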

Additional observations from a re-analysis of the deposited data

How the results depend on the processing

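The 30 member differences were recomputed under 7 alternatives: quantile normalization, median centring, 16 subtracted from each intensity, a background at the 99th percentile, values below background raised to it, no filter, and the mean of probe sets. All 210 values kept their sign, and 20 moved by more than the probe set SD. Of these, 15 came with 16 subtracted, which by construction widens folds of dim genes, 4 with values raised to background and 1, for Gbx2, with the mean of probe sets. Many of the 210 signs were fixed in advance, so their agreement says little. Subtracting 16 from every intensity keeps the order of a gene's arrays. Median centring adds the same constant to every gene of a comparison, and here that constant was smaller than any member difference. The 99th percentile background and the lack of a filter change no member level. The mean of probe sets can change only Gbx2, and raising to background changes only levels below it. Under these alternatives or a 1.5-fold threshold there were 76 counts, medians and median shares. Of these, 72 stayed within 1.5 times the count or within the probe set SD of the median. Part of that stability was also fixed in advance. The 99th percentile background and the lack of a filter left each at its main value, and the mean of probe sets could act only through Gbx2. With 16 subtracted, 2 members (Prdm14 and Calcoco2) exceeded 2i by 2-fold or more in Activin+PD, and the median difference of mEpiSC minus 2i was -4.28. Over all genes, 295 in place of 193 were then past 2-fold upward in Activin+PD against 2i. With the mean of probe sets, 0 members were at least 2-fold lower in Activin+PD. At 1.5-fold, 2 members were higher in Activin+PD, and all 10, Gbx2 included, were lower in mEpiSC than in 2i. No paired analysis was possible because each group has 1 array, and for the same reason no array could be left out. Signal over background limits Esrrb and Gbx2 most, since both were below 3.5 times background on every array.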
